A study of Mus musculus with 8 samples.

Results

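The opioid, cannabinoid, somatostatin and galanin receptors described here are 10 genes, Oprm1, Oprd1, Oprk1, Oprl1, Cnr1, Sstr1, Sstr2, Sstr3, Sstr4 and Galr1, out of 55335 genes in the table. They were listed by name as receptors that couple to inhibitory G proteins, and the rule that picks them uses no measured value, although the list was drawn up with earlier results of these data known. RNA was measured in vagal ganglia, the paired sensory ganglia of the vagus nerve, of wild-type (WT) mice. The mice had received saline or HDM (commonly short for house dust mite, an airborne allergen), and all ganglia were taken 1.5 h after challenge number 4. There were 4 libraries in each group, and each was made from 6 to 8 ganglia pooled from 3 to 4 mice. A batch label from 1 to 4 equals the replicate number, and each batch holds 1 HDM and 1 saline library. The labels name no strain, sex or age.

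These receptors are G protein-coupled receptors of the Gi/o class. When a ligand binds, the G protein lowers cyclic AMP production by adenylyl cyclase, its beta-gamma subunits open GIRK potassium channels, and they inhibit the calcium channels that trigger transmitter release. In sensory neurons this reduces firing and the release of glutamate and neuropeptides. Opioid peptides act on Oprm1, Oprd1 and Oprk1, nociceptin acts on Oprl1, endocannabinoid lipids on Cnr1, somatostatin and cortistatin on the Sstr receptors, and galanin on Galr1.

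The 4 opioid family receptors are close relatives, and their most alike coding stretch is shown because it bears on whether reads could be assigned to 1 gene. Each run of 60 bases is given 5′ to 3′ on the coding strand of GRCm38 (GENCODE M21 transcripts), and capitals mark bases that are the same in all 4 genes.
Oprm1: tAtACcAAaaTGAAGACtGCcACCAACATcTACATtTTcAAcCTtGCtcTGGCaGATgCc
Oprd1: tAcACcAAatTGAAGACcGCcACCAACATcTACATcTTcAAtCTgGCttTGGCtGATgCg
Oprk1: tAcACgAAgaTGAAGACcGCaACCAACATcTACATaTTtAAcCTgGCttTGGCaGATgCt
Oprl1: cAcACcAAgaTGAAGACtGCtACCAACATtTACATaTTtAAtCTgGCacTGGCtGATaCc
The stretches lie at chr10:6828886-6828945 (plus strand), chr4:132117408-132117467 (minus), chr1:5598591-5598650 (plus) and chr2:181718378-181718437 (plus), in this order. Of the 60 bases, 43 (71.7%) were the same in all 4 genes. Over whole transcripts, the longest run of identical bases was 25 bases between any pair of opioid family members and 23 bases between any pair of somatostatin receptors. None of the 45 pairs of the 10 receptors shared a run of 50 bases, the read length. The genes span chr10:6758506-7038198 (Oprm1), chr4:132110726-132144486 (Oprd1), chr1:5588466-5606131 (Oprk1) and chr2:181715016-181720985 (Oprl1).

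Library totals ranged from 23952130 to 26670634 counts in HDM and from 26868337 to 31281281 counts in saline. The ganglion label was checked against markers, whose levels are summed CPM (depth-scaled counts, computed over tested genes with TMM factors). All 10 general neuron markers, all 9 nodose markers (among them P2rx2) and all 7 jugular markers (among them Prdm12) had counts in every library. So did all 7 mast cell, 9 macrophage, 8 endothelial, 6 fibroblast and 10 Schwann cell markers. The presence of counts at this depth therefore cannot decide whether the label is right. The general neuron markers summed to 11553 to 13285 CPM over the libraries, and the macrophage markers to 58.6 to 95.9 CPM. Sympathetic neurons belong to neighbouring ganglia. The 9 markers listed for them also had counts in every library, with sums of 255.6 to 752.6 CPM in HDM and 121.9 to 327.7 CPM in saline. Which cells these counts came from was not tested. In these bulk samples, fewer cells of a type and less RNA per cell cannot be told apart. Replicates are separate pools, so p-values measure the spread between pools.

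Cnr1, the cannabinoid receptor of neurons, was the most abundant of the 10 receptors. Levels between genes were compared as TPM, which divides counts by gene length. Over all 8 libraries Cnr1 stood at 94.8 ± 7.78 TPM (SD), 6.09 times the next receptor, and its lowest library was above the highest library of each other receptor. It made up 56.6% to 62.3% of the summed TPM of the 10 receptors in a library. Oprl1, the nociceptin receptor, followed at 15.6 ± 1.28 TPM, and Oprd1, the delta opioid receptor, at 15.4 ± 2.40 TPM. Their ranges overlapped. Sstr4 followed at 10.7 ± 1.30 TPM, then Oprm1, the mu opioid receptor and main target of morphine, at 7.44 ± 1.44 TPM. Galr1 stood at 5.82 ± 1.05 TPM and Sstr2 at 5.81 ± 0.938 TPM, and each of these steps joined ranges that overlapped. Oprk1, the kappa opioid receptor that binds dynorphin, had the lowest level of the 8 clearly detected receptors, at 3.60 ± 0.333 TPM, and 1 of its libraries, saline 4, lay above the lowest Sstr2 library.

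**Figure D1:**
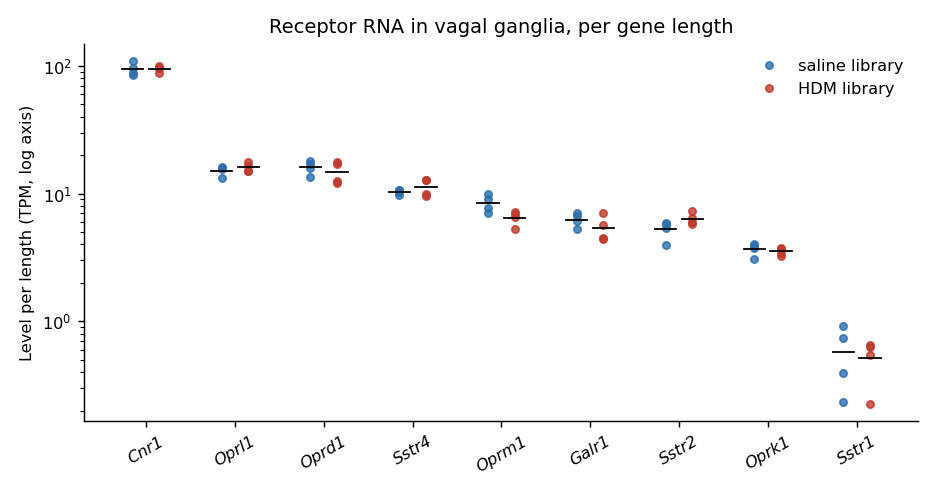
Level per gene length (TPM, log axis) of 9 receptors in each saline (blue) and HDM (red) library, with black bars for group means; Sstr3, at 0 in most libraries, is not drawn. Cnr1 stands near 95 TPM apart from the rest, 7 receptors lie between 3.05 and 18.1 TPM, and Sstr1 lies below 1 TPM.

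The middle of this order rests on the gene length that is used. Oprm1 has 31 annotated transcripts, and the deposited table gives it a merged length of 8037 bases, against 2420 bases for its longest protein-coding transcript. With the latter length, a choice added after seeing the data, Oprm1 came to 24.7 TPM and moved from rank 5 to rank 2. Oprk1 moved from rank 8 to rank 6 in the same way, at 7.04 TPM, and Cnr1 stayed at rank 1. On the CPM scale, which does not divide by length, Oprm1 had rank 3.

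Sstr1 and Sstr3 were near or under the detection limit. Sstr1 had 3, 9, 9 and 8 counts in the HDM libraries and 6, 16, 12 and 4 in the saline libraries, in the order of batches 1 to 4. Sstr3 had 1 count in HDM 1, 5 counts in saline 2, and 0 in the other 6 libraries. In those 6, a count of 0 allows up to 3 counts, or 0.0974 to 0.119 CPM, a floor that covers counting error only. Neither gene passed the filter on low counts, so 8 of the 10 receptors were tested. Among the somatostatin receptors, RNA of Sstr4 and Sstr2 was therefore the main part, with a summed level of 18.1 ± 1.29 TPM in HDM and 16.1 ± 0.784 TPM in saline for the 4 genes (SD, n = 4).

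The comparison asked whether receptor RNA differed between HDM and saline ganglia. None of the 8 tested receptors was called by edgeR's quasi-likelihood test at an adjusted p under 0.05, where 1.38% of all 17618 tested genes were called and 0.159% were called as lower in HDM. At an unadjusted p under 0.05 there was 1 receptor, Oprm1, against 18.1% of all genes. With the batch as a replicate block, Oprm1 was called as lower in HDM and the other 7 receptors were not, against 4.05% of all genes called and 1.03% called as lower. DESeq2 also called Oprm1, and not the other 4 receptors to which it gave an adjusted p, against 7.38% of all genes with one; Sstr2, Sstr4 and Galr1 received none. Of the 8 receptors, 5 had a negative and 3 a positive log2 fold change (HDM over saline), with a median of −0.04, beside −0.01 over all genes tested.

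Oprm1, through which beta-endorphin and morphine act, was lower in HDM in every batch. Its level was 15.1, 15.3, 14.1 and 11.6 CPM in HDM libraries 1 to 4 and 20.1, 17.0, 21.4 and 15.3 CPM in saline libraries 1 to 4. The groups did not overlap: the lowest saline library, saline 4, lay just above the highest HDM library, HDM 2, and HDM 4 was the lowest of all. Groups that do not overlap, in either direction, were found for 10.6% of all genes tested. HDM was lower in 4 of 4 batches, as it was for 12.8% of all genes. The differences in log2 CPM were −0.41, −0.16, −0.59 and −0.41 in batches 1 to 4.

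The mean of Oprm1 was 14.03 ± 1.73 CPM in HDM and 18.5 ± 2.77 CPM in saline (SD, n = 4), from 306 to 625 counts per library. Its log2 fold change was −0.40 (SE 0.11, 95% interval −0.67 to −0.12; a fold of 0.760), with an adjusted p of 0.0950 by edgeR's quasi-likelihood test. With the replicate block it was −0.39 (SE 0.083), with an adjusted p of 0.0328 by the same test. The call with the block was lost when any 1 batch was left out, with log2 fold changes of −0.48 to −0.32 and adjusted p of 0.0677 to 0.152. With a correction for the GC content of transcripts, the log2 fold change was −0.39 without and −0.38 with the block, and the adjusted p was 0.229 and 0.0810 (edgeR). With that correction and the block, 0.0681% of all genes were called as lower, and no receptor. Over all 20 alternatives to the fit without the block, the adjusted p of Oprm1 ran from 0.00604 to 0.287.

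HDM 4, the library with the least Oprm1, was extreme in some marker sums and not in others. It had the highest sum of sympathetic markers, 752.6 CPM, against at most 327.7 CPM in any other library. Without HDM 4, Oprm1 had a log2 fold change of −0.31 and an adjusted p of 0.226 (edgeR). This was not particular to HDM 4, since without saline 3 the values were −0.32 and 0.273. Without HDM 1 or HDM 2 the log2 fold change was −0.44, with an adjusted p of 0.167 or 0.175 (edgeR). The sum of the 10 general neuron markers was 12315 to 13285 CPM in HDM (12831 in HDM 4) and 11553 to 11886 CPM in saline. It was lower in HDM in 0 of 4 batches. By edgeR with the block, 5 of the 10 were called as higher, and 0 with the GC correction too, against 4.05% of all genes called in either direction with the block. The sum of the nodose markers was 1184 to 1577 CPM in HDM, highest in HDM 4, and 1221 to 1324 CPM in saline. The sum of the 7 nociceptor markers (among them Calca, Trpv1 and Scn10a), which mark pain-sensing neurons, was 2664 to 3036 CPM in HDM and 2691 to 3102 CPM in saline, lower in HDM in 4 of 4 batches with a log2 ratio of means of −0.07. The part of cell makeup in the Oprm1 difference was not tested.

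Oprm1 overlaps another gene, and the strand setting of the counting is not given. Ipcef1 lies on the opposite strand and shares 96 of the 8037 exon bases of Oprm1. It stood at 2.70 ± 0.43 CPM in HDM and 3.11 ± 0.41 CPM in saline (SD, n = 4; log2 fold change −0.20, adjusted p 0.531 by edgeR), well below Oprm1. Gm10945, on the opposite strand across the start of Oprm1, shares no exon bases with it and had 0 counts. Sstr2 lies within the span of Slc39a11 on the opposite strand, with 0 shared exon bases, and the other 8 receptors overlap no annotated gene.

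**Figure D2:**
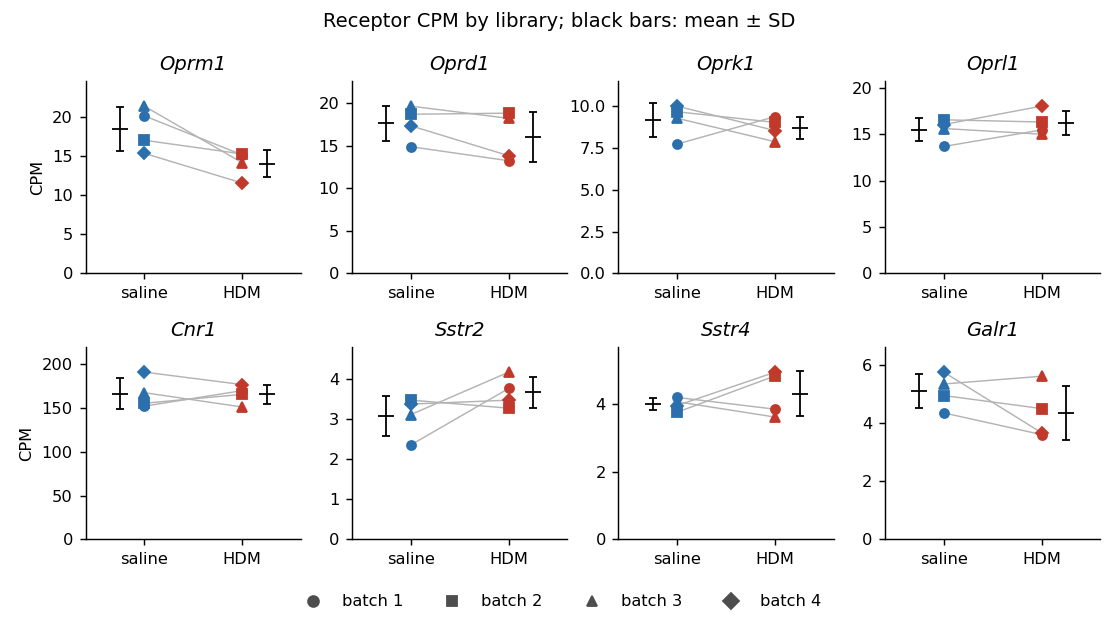
CPM of the 8 tested receptors in each saline (blue) and HDM (red) library, with grey lines joining libraries of 1 batch, symbols for batches 1 to 4 and black bars for mean ± SD (n = 4). Each Oprm1 line goes down from saline to HDM and its groups do not overlap, while the groups of the other 7 receptors overlap.

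Oprd1, the delta receptor, which enkephalins activate, had 13.2, 18.8, 18.2 and 13.8 CPM in HDM libraries 1 to 4 and 14.9, 18.7, 19.6 and 17.3 CPM in saline libraries 1 to 4. HDM 1 and HDM 4 were the lowest libraries, HDM 2 and HDM 3 lay among the saline libraries, and HDM was lower in 3 of 4 batches. On the log2 scale the fold change was −0.14 (SE 0.12, 95% interval −0.40 to 0.12; adjusted p 0.571 by edgeR). Oprk1, the dynorphin receptor, had 9.37, 9.02, 7.87 and 8.53 CPM in HDM and 7.73, 9.66, 9.27 and 9.99 CPM in saline. Its lowest library was saline 1 and its highest saline 4, so that saline spanned the whole range of HDM. The log2 fold change was −0.08 (95% interval −0.33 to 0.17; adjusted p 0.732 by edgeR), and with the GC correction it was 0.01.

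Oprl1, which binds nociceptin and none of the classical opioid peptides, had 15.5, 16.3, 15.0 and 18.0 CPM in HDM and 13.7, 16.6, 15.6 and 16.1 CPM in saline. HDM 4, the library lowest in Oprm1, was the highest in Oprl1, and HDM was higher in 2 of 4 batches. Its log2 fold change was 0.07 (95% interval −0.14 to 0.27; adjusted p 0.717 by edgeR). Within the opioid family, Oprm1 took 15.9 ± 1.93% of the summed TPM in HDM and 19.5 ± 3.23% in saline (SD, n = 4), and these shares overlapped between groups. Oprl1 took 39.4 ± 4.31% in HDM and 34.97 ± 1.90% in saline, Oprd1 36.0 ± 4.55% and 37.0 ± 1.71%, and Oprk1 8.67 ± 0.941% and 8.48 ± 0.711%. The summed TPM of the 4 genes was 40.8 ± 3.11 in HDM and 43.3 ± 3.58 in saline. These shares rest on the deposited gene lengths. With the length of the longest protein-coding transcript, Oprm1 stood highest of the 4, at 24.7 TPM. Oprl1 then stood at 19.5, Oprd1 at 15.4 and Oprk1 at 7.04 TPM (means over all libraries).

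Cnr1 had the narrowest interval of the 8 receptors. It stood at 169.5, 165.2, 150.8 and 176.4 CPM in HDM libraries 1 to 4 and at 151.8, 155.1, 167.2 and 190.6 CPM in saline libraries 1 to 4. Both the highest library, saline 4, and the group with the wider spread were saline. On the log2 scale the fold change was −0.01 (SE 0.07, 95% interval −0.18 to 0.16; adjusted p 0.974 by edgeR), and with the GC correction it was 0.06. HDM was lower in 2 of 4 batches.

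The somatostatin and galanin receptors were tested on fewer counts, 64 to 177 per library. Sstr2 had 3.77, 3.27, 4.17 and 3.47 CPM in HDM and 2.36, 3.47, 3.11 and 3.37 CPM in saline. Its lowest library was saline 1, its highest HDM 3, and HDM was higher in 3 of 4 batches. The log2 fold change was 0.25 (SE 0.15, 95% interval −0.12 to 0.62; adjusted p 0.406 by edgeR). Sstr4 had 3.85, 4.84, 3.62 and 4.95 CPM in HDM and 4.20, 3.76, 4.07 and 3.96 CPM in saline. HDM 2 and HDM 4 were above all saline libraries and HDM 3 below them all. Its log2 fold change was 0.11 (95% interval −0.21 to 0.44; adjusted p 0.698 by edgeR), and with the GC correction it was −0.02.

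Galr1, a receptor for galanin, had 3.60, 4.49, 5.60 and 3.66 CPM in HDM and 4.34, 4.94, 5.34 and 5.74 CPM in saline. HDM was lower in 3 of 4 batches, and HDM 3 was the second highest of all libraries. On the log2 scale the fold change was −0.23 (SE 0.15, 95% interval −0.61 to 0.14; adjusted p 0.451 by edgeR). The intervals of Galr1 and Sstr2 reach −0.61 and 0.62, so by these intervals changes up to about those sizes are not excluded.

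**Figure D3:**
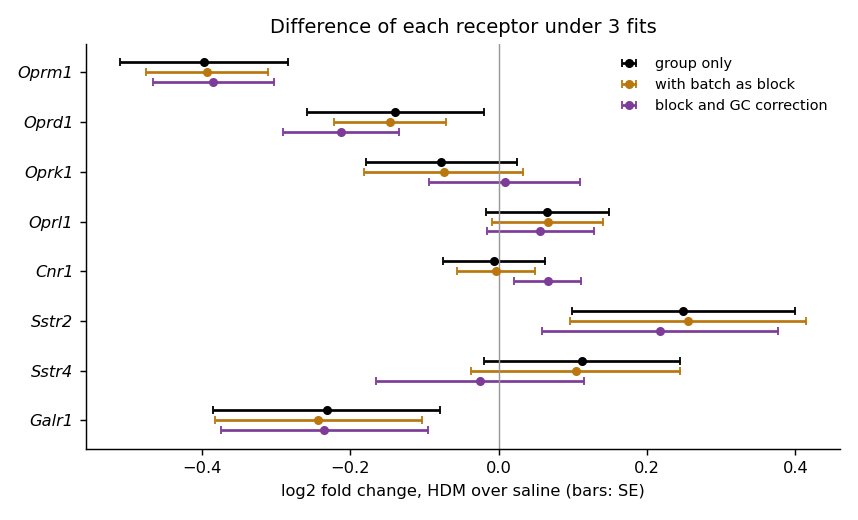
Log2 fold change (HDM over saline) of each tested receptor with its SE, without the batch (black), with the batch as a block (orange), and with the block and a GC correction (purple). Oprm1 lies between −0.40 and −0.38 in all 3 fits and has the most negative value in each, while the signs of Oprk1, Cnr1 and Sstr4 turn with the GC correction.

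The genes with a pattern over the libraries most like that of Oprm1 were sought among 14673 tested protein-coding genes. Likeness was the root mean square difference in log2 CPM, each gene taken as its difference from its mean over the 8 libraries. Sgcd, which encodes a sarcoglycan, was closest (0.0755), followed by Zfp879 (0.0992) and Prrg4 (0.112). For scale, the SD of Oprm1 itself over the 8 libraries was 0.281 in log2 CPM. The log2 fold changes of the 3 genes were −0.29, −0.26 and −0.35, and none was called (edgeR adjusted p 0.191, 0.492 and 0.0908).

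Genes that make the ligands, transduce the signal or share the class of these receptors were taken from 9 lists of 99 genes, of which 89 were tested. By edgeR, 1 of the 89 was called as lower in HDM, Pomc, and 0 as higher, against 1.38% of all genes called and 0.159% called as lower. At an unadjusted p under 0.05 there were 24 of the 89, against 18.1% of all genes. With the replicate block, 2 were called as higher, Gnai2 and Gnaz, and 1 as lower, Pomc, against 4.05% of all genes called and 1.03% called as lower. The median log2 fold change of the 89 genes was 0.02, and 47 were positive and 42 negative.

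Among the peptide precursors, Pomc, the precursor of beta-endorphin, stood at 0.418, 0.228, 0.397 and 0.378 CPM in HDM libraries 1 to 4 and at 0.258, 2.29, 5.88 and 5.97 CPM in saline libraries 1 to 4. Saline 1 lay within the HDM range, while saline 2, saline 3 and saline 4 lay above every HDM library. The counts were 6 to 10 in HDM and 7, 72, 172 and 184 in saline. The log2 fold change was −3.35 (SE 0.69; adjusted p 0.0345 by edgeR), and −3.16 with the replicate block (adjusted p 0.0152). The call without the block was lost without HDM 1, HDM 2, HDM 4, saline 2, saline 3 or saline 4 (adjusted p 0.0518 to 0.147 by edgeR), and with the GC correction (0.127). With the block it was lost without batch 2, batch 3 or batch 4 (0.0658 to 0.105) and was kept with the block and GC correction together (0.0415, edgeR). Over 18 alternatives to the fit without the block, the adjusted p ran from 4.6e-08 to 0.249. Pomc is also a pituitary hormone gene, and Gh and Prl, 2 others chosen after their values were seen, were highest in saline 2, at 36.1 and 3.25 CPM. In saline 3 and saline 4, where Pomc was highest, Gh stood at 3.66 and 0.974 CPM, and its range in HDM was 0.453 to 5.86 CPM. Both Gh and Prl were lower in HDM in 4 of 4 batches, as were 12.8% of all genes tested, though Prl itself did not pass the filter on low counts. In batch 1, Gh had 13 counts in HDM and 15 in saline, and it had 1134 counts in saline 2. Prl had 1, 20, 3 and 2 counts in HDM libraries 1 to 4 and 7, 102, 12 and 5 in saline libraries 1 to 4. Gh had a log2 fold change of −2.29 without the block (adjusted p 0.269) and −1.77 with it (adjusted p 0.0203, and 0.0452 with the GC correction too, edgeR). The source of the Pomc counts was not tested.

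The other precursors were not called. Gal, the precursor of galanin, had the highest level in CPM, 20.8 ± 2.45 in HDM and 18.4 ± 2.86 in saline (SD, n = 4; log2 fold change 0.17, adjusted p 0.423 by edgeR). Sst, the somatostatin precursor, stood at 5.17 ± 0.916 and 5.003 ± 1.20 CPM (log2 fold change 0.05). Penk, the enkephalin precursor, stood at 4.53 ± 0.474 and 4.96 ± 0.643 CPM (−0.13). Pdyn, the dynorphin precursor, had a log2 fold change of 0.15 and Pnoc, the nociceptin precursor, of −0.18, with at most 3.03 CPM in any library. Cort and Galp had 0 to 4 counts per library and were not tested.

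Of the 10 genes that make or break down endocannabinoids and related lipids, none was called by edgeR, 3 had an unadjusted p under 0.05 (18.1% of all genes did), and 5 each had a positive and a negative log2 fold change. Naaa, which hydrolyses palmitoylethanolamide, had the smallest p. It stood at 38.0 ± 1.64 CPM in HDM and 42.7 ± 0.389 CPM in saline (SD, n = 4). Its groups did not overlap, as for 10.6% of all genes tested, and its log2 fold change was −0.17 (SE 0.047, adjusted p 0.0909 by edgeR). DESeq2 called it (adjusted p 0.0393). Of the 5 other receptors for the same ligands, only Sstr5 passed the filter, at 1.14 ± 0.159 and 0.937 ± 0.240 CPM (log2 fold change 0.30, adjusted p 0.531 by edgeR). Cnr2, the cannabinoid receptor of immune cells, had 1 to 8 counts per library.

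Gnai2 and Gnaz, alpha subunits of inhibitory G proteins, were called with the replicate block. Gnai2 stood at 219.3, 218.9, 211.8 and 227.4 CPM in HDM libraries 1 to 4 and at 199.7, 193.5, 189.2 and 206.4 CPM in saline libraries 1 to 4. All HDM libraries were above all saline libraries, by a small margin. Groups without overlap, in either direction, were found for 10.6% of all genes tested. Its log2 fold change was 0.15 (SE 0.043), with an adjusted p of 0.0902 by edgeR without and 0.0381 with the block. Gnaz stood at 65.1 ± 2.42 CPM in HDM and 58.1 ± 2.85 CPM in saline (SD, n = 4; log2 fold change 0.16, adjusted p 0.107 without and 0.0470 with the block, by edgeR). With the block and the GC correction together, Gnai2 had a log2 fold change of 0.07 (adjusted p 0.382) and Gnaz of 0.09 (adjusted p 0.315). With the block, both calls were lost without any 1 batch (adjusted p 0.105 to 0.180, edgeR). DESeq2 called Gnai2 (adjusted p 0.0211) and not Gnaz (0.0610).

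Kcnj9, a subunit of the GIRK potassium channels that these receptors open, had the smallest p among the listed GIRK and calcium channel subunits. It stood at 7.28, 6.62, 6.32 and 7.29 CPM in HDM libraries 1 to 4 and at 5.08, 4.88, 5.54 and 4.84 CPM in saline libraries 1 to 4. Every HDM library was above every saline library, where 10.6% of all genes tested had groups without overlap in either direction. On the log2 scale the fold change was 0.44 (SE 0.10, 95% interval 0.19 to 0.69), which missed the threshold with an adjusted p of 0.0544 by edgeR and 0.0574 with the replicate block. DESeq2 gave an adjusted p of 0.0132, and with the GC correction the log2 fold change was 0.32 (adjusted p 0.265, edgeR). The other tested GIRK subunits, Kcnj3 and Kcnj6, had log2 fold changes of 0.04 and −0.34.

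None of the 4 calcium channel subunits, 9 adenylyl cyclases, 24 kinases, arrestins and RGS proteins, or 27 tested other Gi-coupled receptors was called by edgeR with or without the block. Counts at an unadjusted p under 0.05 without the block were 1, 2, 8 and 5, in that order, where 18.1% of all genes passed. DESeq2 called 1 of these genes, Cacnb3, against 7.38% of all genes with an adjusted p. The smallest p of each of these lists belonged to Cacnb3 (log2 fold change 0.13, adjusted p 0.125 by edgeR), Adcy1 (−0.19, 0.125), Rgs12 (0.20, 0.103) and Adra2c (0.35, 0.110). With the GC correction, the log2 fold change of Cacnb3 was 0.017 (adjusted p 0.904) and that of Adra2c 0.19 (0.506, edgeR). Cacnb3 encodes a beta subunit of calcium channels, Adcy1 a cyclase, Rgs12 a protein that speeds the shutdown of G proteins, and Adra2c an adrenergic receptor. The 27 other Gi-coupled receptors had a median log2 fold change of −0.01, with 11 positive and 16 negative, beside −0.04 for the 8 receptors described here.

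**Figure D4:**
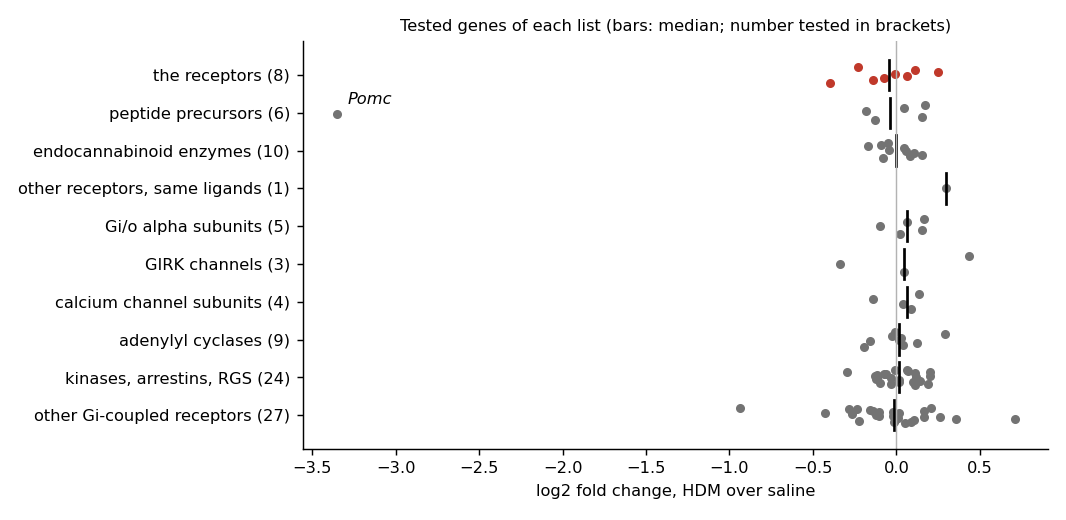
Log2 fold change (HDM over saline) of each tested gene of the 8 receptors (red) and of the 9 lists of related genes (grey), with black bars for medians and the number tested in brackets. The medians lie close to 0 except for the list with 1 tested gene, and Pomc lies apart at −3.35.

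Some receptors and markers of neuron subtypes had their lowest values in the same libraries. These patterns were noticed after the values were seen, among 32 pairs of a receptor and a marker sum, and p-values are adjusted over the 32. HDM 1, saline 1 and HDM 4 had the lowest sums of jugular markers, at 392.04, 416.9 and 421.8 CPM, and the next library stood at 455.6 CPM. The same 3 libraries had the lowest sums of nociceptor markers, at 2673, 2691 and 2664 CPM, and the next stood at 2957 CPM. They were also the 3 lowest libraries in Oprd1 and the 3 lowest in Galr1. Because the libraries fall into 3 low and 5 high in these sums, no pooled correlation with them is given, and each side holds too few libraries for its own. Which of the 2 marker sums Oprd1 or Galr1 went with cannot be told apart.

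Oprm1 was not lowest in these 3 libraries: saline 1, at 20.1 CPM, was its second highest. Against the sympathetic markers, Oprm1 had r = −0.73 and rho = −0.60 over the 8 libraries (exact permutation p = 0.0418 and 0.132, adjusted p = 0.167 and 0.440). Both groups are pooled in these values, so the difference between groups enters them. With group means removed, r was −0.53. The r of −0.73 rests on the extreme libraries, since r was −0.08 without the 2 farthest from the median. Each batch holds 2 libraries, too few for a value within batches. With the same markers, Oprl1 had a stronger r of 0.84, and 0.86 with group means removed. Its adjusted p was 0.0989 (exact permutation), and its r was 0.14 without the same 2 libraries. What the points share, such as the dissection of a pool, was not measured.

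**Figure D5:**
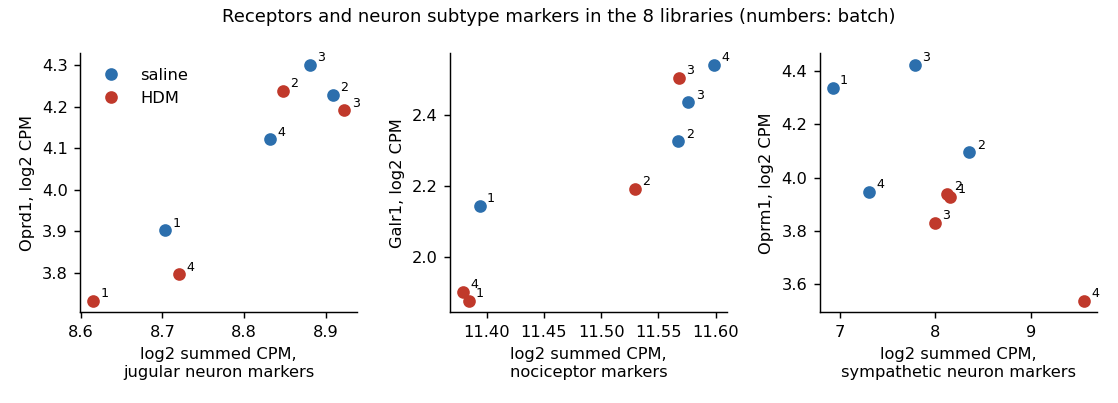
Log2 CPM of Oprd1, Galr1 and Oprm1 against the log2 summed CPM of jugular, nociceptor and sympathetic markers in the 8 libraries (saline blue, HDM red, numbers for batches). Oprd1 and Galr1 are lowest where their marker sums are lowest, and HDM 4 stands apart in the sympathetic sum with the lowest Oprm1.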

How the data were processed

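Counts per gene were analysed from 8 libraries of mouse vagal ganglia (4 HDM, 4 saline), sequenced as paired reads of 50 bp after an Illumina stranded mRNA preparation, per the labels' protocols. The deposited values are raw counts, made with featureCounts on GRCm38 (mm10) per the submitters' processing notes. The aligner, versions, strand setting and treatment of reads that match several genes are named by none of the labels or notes. Symbols and overlaps come from GENCODE M21, in which 54899 of the 55335 genes have the same span. The table's gene lengths, deposited by the authors, were used for TPM.

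Genes were kept with filterByExpr (17618 genes) and compared with edgeR 4.0.16 (R 4.3.3): TMM factors, a 2-sided quasi-likelihood F-test on the group alone, and p-values adjusted over all genes tested by Benjamini and Hochberg. An adjusted p under 0.05 made a call. Because the batch label pairs libraries, a second fit added the replicate block. The pairing rests on the labels: between the 2 libraries of a batch, deviations from group means had correlations of −0.048 to 0.039, and for 0 of 8 libraries was the own batch's partner the closest. Replicates differed beyond sampling noise (chi-square per degree of freedom 4.98 to 18.6). The GC correction used, as an offset per library, a natural spline (4 degrees of freedom) of log2 CPM against transcript GC, estimated from genes whose mean log2 CPM exceeded 3.

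Other alternatives were RLE size factors, no filter, a filter of 1 CPM in 4 libraries, DESeq2 1.42.0, limma-voom (limma 3.58.1), and leaving out each library or batch. The fits were tested on simulated data. The receptors and lists were chosen with earlier results of these data known, though the rule for the receptors uses names alone. All receptors were named whatever their p. Of the related lists, each tested precursor, each called gene and the gene with the smallest p of each list were named, and others only where the text says so or to complete a small family. Some marker genes are not reported here by name.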

Additional observations from a re-analysis of the deposited data

Results flagged for a closer look

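Sstr3 was marked in both groups because 1 library stood apart from 3 others at 0. In HDM it was listed at 0.0418 CPM (1 count) in HDM 1, and in saline at 0.159 CPM (5 counts) in saline 2. Of the 32 groups of 4 values checked, chance alone marks about 1 in 20, and 1 count is within the floor of 3 counts.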

How the results depend on the processing

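The call of Oprm1 depended on the fit: 0 receptors were called by edgeR (1 at an unadjusted p under 0.05), and 1, Oprm1, without a filter (adjusted p 0.00604), with DESeq2 (0.0161) and with the replicate block. Its log2 fold change was negative under all 20 alternatives, from −0.48 to −0.31. With the block, leaving out any 1 batch gave 0 called receptors. Over all genes, the 244 called became 722 without a filter, 871 with DESeq2, 713 with the replicate block, 51 with the block and GC correction, and 0 with the GC correction (2063 at an unadjusted p under 0.05). Leaving out 1 library or batch gave 0 (without HDM 1, HDM 2, saline 3 or batch 2; 2357 to 2452 at an unadjusted p under 0.05) to 376 (without HDM 3), and 60 without HDM 4 and 97 without saline 2. With the block it gave 1 (without batch 2) to 150, against 713. The 1 called pathway gene became 3 with the replicate block, 4 with DESeq2 (Gnai2, Naaa, Kcnj9 and Cacnb3, while Pomc received no adjusted p), and 0 with limma-voom, the GC correction or the stricter filter, which removes Pomc. It became 0 to 2 leaving out 1 library or batch, and with the block 0 to 1, against 3. The genes whose sign turned all had a log2 fold change without the block between −0.18 (Pnoc) and 0.15 (Pdyn). Not every gene in that range turned: Oprd1 stayed at −0.23 to −0.061 and Oprl1 at 0.0066 to 0.105. Single alternatives for the genes that turned reached larger values, down to −0.54 for Pnoc and up to 0.40 for Pdyn. With the GC correction and with both GC and block, the log2 fold change was 0.0065 and 0.0082 for Oprk1, 0.065 and 0.066 for Cnr1, −0.018 and −0.025 for Sstr4, and −0.036 and −0.024 for Sst. Leaving out 1 library or batch gave −0.059 to 0.063 for Cnr1, −0.21 to 0.028 for Penk, −0.016 to 0.40 for Pdyn, −0.54 to 0.14 for Pnoc and −0.068 to 0.23 for Sst. With the block these ranges were −0.057 to 0.045 for Cnr1, −0.21 to 0.028 for Penk, −0.45 to 0.0036 for Pnoc and −0.033 to 0.22 for Sst. The cause was not tested. Between 64 and 177 counts per library limit what could be seen for Sstr2, Sstr4 and Galr1.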
